A study of Mus musculus with 12 samples.

Results

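Chemokine transcripts were followed in mammary epithelial cell preparations from mice with and without an inducible p190B transgene. They were 10 of the 18193 genes that the array names by a single symbol: Ccl11, which encodes eotaxin, Ccl2, Ccl7, Ccl8, Ccl20, Cxcl1, Cxcl5, Cxcl12, Cxcl14 and Cxcl16. The genes were read by all 16 probe sets, of 45037 on the array, whose annotation gave exactly 1 of these symbols, and all 16 passed the level filter that 27022 probe sets passed. The genes were chosen by values of these same arrays, their signal in p190B against control cells and on p190B replicate 2. The genotype differences and the replicate 2 values of these genes are therefore given as a description, and no test of them is used as evidence.

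Cells came from female FVB/N mice, an inbred strain, with 6 arrays per genotype described by the labels as biological replicates. The p190B group carried MMTV-rtTA, which places a doxycycline-dependent activator under a promoter active in mammary epithelium, and TetO-p190B, which responds to it and also carries luciferase. The control group carried MMTV-rtTA alone. All mice of both groups were fed doxycycline chow at 2 g/kg for 7 days from 5 weeks of age, and cells were isolated at 6 weeks. p190B is encoded by Arhgap5. Its 4 probe sets gave log2 differences of 0.41, −0.32, −0.14 and 0.10 between p190B and control, and 0 of them passed limma over all probe sets (adjusted p from 0.258 to 0.925). Which part of the transcript each reads is unstated in the sources used, so these values do not check the genotype labels.

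Chemokines are small secreted proteins that guide leukocytes by binding receptors with heterotrimeric G proteins. Members named Ccl have adjacent conserved cysteines and those named Cxcl have a residue between them. Epithelial cells, fibroblasts and macrophages of the mammary gland can all make them, and during puberty eosinophils drawn by eotaxin and macrophages gather around the growing ducts. Several, among them Ccl2, Ccl20 and Cxcl1, are classic targets of the transcription factor NF-κB.

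The preparations held RNA of epithelial and other cells. All 12 measured luminal and all 10 basal epithelial markers passed the level filter, as did all 15 fibroblast, 14 macrophage, 12 measured lymphocyte and 9 endothelial markers. Lymphocyte markers varied most of the marker lists, with mean log2 levels of 6.97 to 10.14 in control and 6.58 to 10.27 in p190B cells. In such bulk samples, fewer cells of a type and less RNA per cell cannot be told apart. The log2 ratio of 3′ to 5′ control probe signal, a sign of RNA quality, also differed with genotype. It lay between −0.52 and −0.47 for Gapdh in control and between −0.48 and −0.32 in p190B.

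Eotaxin signal was lower in p190B cells. Ccl11, the main eosinophil attractant of the pubertal gland, had intensities of 6755 (lowest), 7405 (median) and 8954 (highest) on the control arrays and 4765, 5705 and 7077 on the p190B arrays. On 5 of 6 p190B arrays it lay below every control array, and replicate 6 alone overlapped the control range. Control cells averaged 7557 ± 751 and p190B cells 5803 ± 896 (SD, n = 6 each). This was a log2 difference of −0.39 (SE 0.10) on the log2(value + 16) scale, which understates changes of dim genes. The difference was −0.43 without p190B replicate 2. It was −0.38 with the Gapdh ratio as a covariate and −0.30 with the Actb ratio, both fits added after seeing the data.

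Most eosinophil markers were dim. Ccr3, the eotaxin receptor of eosinophils, reached at most 63.8 intensity units on control and 40.7 on p190B arrays, below the filter at about 101. Epx, eosinophil peroxidase, reached at most 40.6 and 39.1, and Prg2, the major basic protein, 53.1 and 67.4. Siglecf, a surface lectin of eosinophils, reached 175.8 on control and 86.3 on p190B arrays, and Il5ra, the IL-5 receptor subunit, 70.1 and 128.8. Of 6 measured eosinophil markers, 5 had a mean below the filter, and the other, Alox15, gave 0.03 (SE 0.23). A difference in eosinophil content could not be measured from these genes at such levels.

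**Figure D1:**
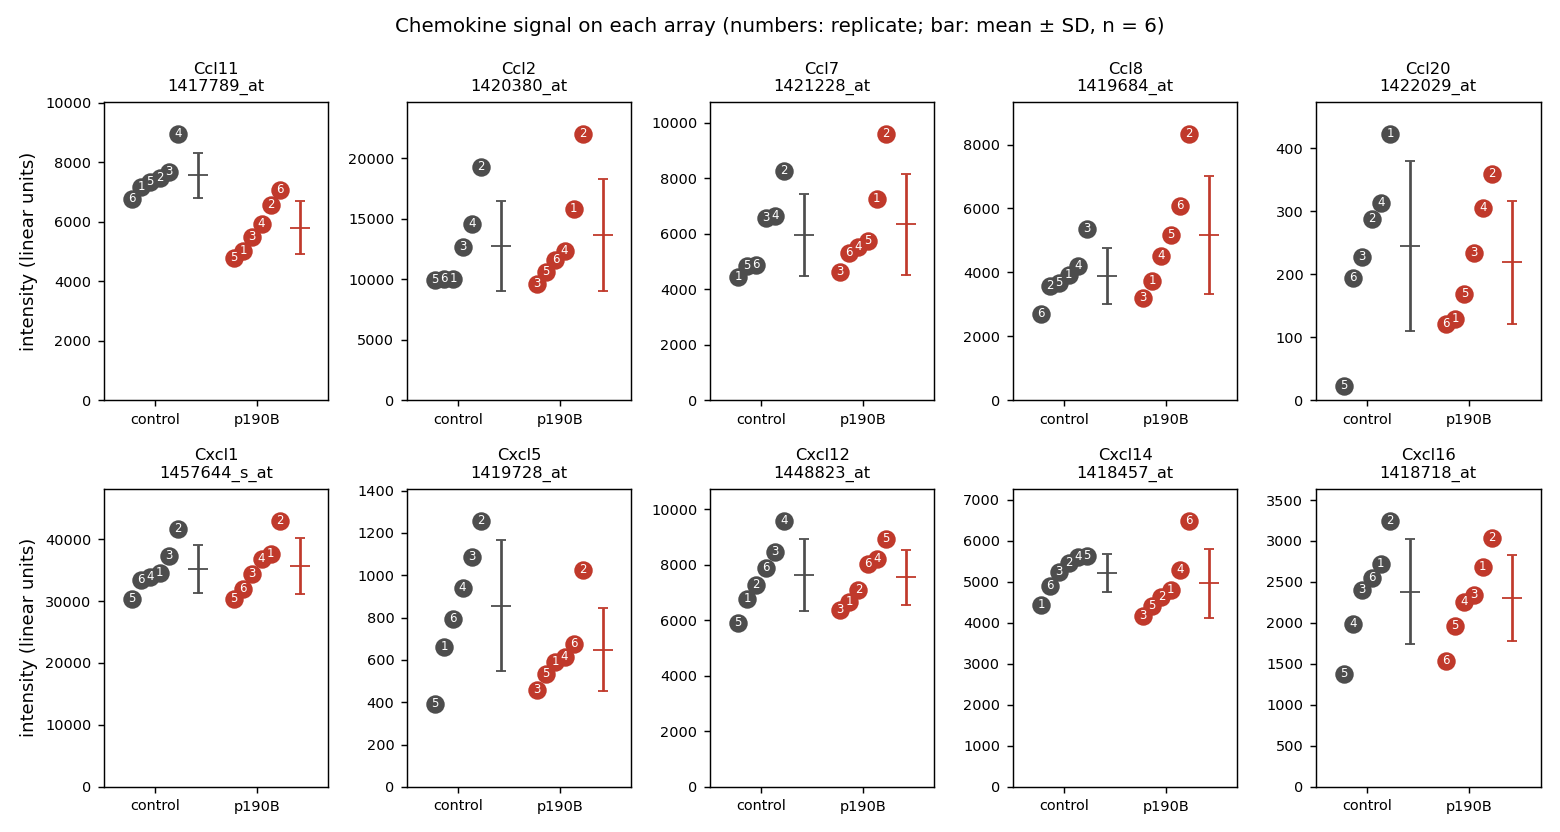
Intensity of the brightest probe set of each chemokine gene on every array (linear units, axis from 0), with control in grey, p190B in red, replicate numbers in the points and bars for mean ± SD, n = 6. Ccl11 is lower on 5 of 6 p190B arrays than on any control array, and Ccl2, Ccl7 and Ccl8 are highest on p190B replicate 2.

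Monocyte attractants did not share the eotaxin pattern, although their genes adjoin it. In the RefSeq gene order Ccl2, Ccl7 and Ccl11 are consecutive protein-coding genes, followed by Ccl12 and Ccl8. Ccl2, the principal ligand of Ccr2 on monocytes, ran from 9927 (median 11327) to 19284 on control and from 9586 (median 11940) to 22018 on p190B arrays. The ranges overlapped almost entirely, and the log2 difference was 0.08 (SE 0.20). Ccl7, which also signals through Ccr2, ran from 4454 (median 5729) to 8278 on control and from 4636 (median 5622) to 9606 on p190B arrays, a log2 difference of 0.08 (SE 0.18). Both differences turned negative without p190B replicate 2, at −0.07 for Ccl2 and −0.04 for Ccl7.

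Ccl8 had the largest positive difference among the 10 genes when each was read by its brightest probe set. This chemokine, which in the mouse signals through Ccr8, ran from 2680 (median 3789) to 5341 on control and from 3203 (median 4838) to 8337 on p190B arrays. Replicates 2 and 6 of p190B lay above every control array, and the others lay within the control range. The log2 difference was 0.36 (SE 0.21) and was 0.21 without p190B replicate 2. With the Actb ratio as a covariate it was 0.70, and it was 0.62 without p190B replicates 1 and 3, which had the highest Actb ratios.

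Neutrophil attractants were bright or moderate and overlapped between genotypes. Cxcl1, a ligand of Cxcr2, was read by 3 probe sets, the brightest of which ran from 30386 (median 34214) to 41623 on control and from 30363 (median 35541) to 42994 on p190B arrays. Its log2 differences were 0.02 (SE 0.09) for that probe set, −0.13 (SE 0.10) for the next brightest and −0.04 (SE 0.12) for the dimmest. With the Gapdh ratio as a covariate these were −0.17, −0.35 and −0.32. The highest value of any probe set in the table was 64224, and whether signals of this size were compressed was not tested. Cxcl5, another Cxcr2 ligand, ran from 394 (median 866) to 1259 on control and from 459 (median 601) to 1024 on p190B arrays. Every p190B value of Cxcl5 lay inside the control range, and the difference was −0.35 (SE 0.25), and leaving out 1 array at a time gave −0.55 to −0.22.

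The chemokines of stroma and epithelium had small differences without a covariate. Cxcl12, which retains cells bearing Cxcr4, gave −0.01 (SE 0.11) for its brightest probe set, with a range of 5895 to 9596 on control and 6361 to 8919 on p190B arrays. It gave −0.04 (SE 0.16) for the next brightest and 0.22 (SE 0.30) for the dimmest, and a fit with the Gapdh ratio as covariate gave 0.22, 0.11 and 0.88. Cxcl14, a chemokine expressed in many epithelia, gave −0.14 (SE 0.09) and −0.08 (SE 0.10), with intensities between 3106 and 6488 over both probe sets and all arrays. Cxcl16, the ligand of Cxcr6 and also a scavenger receptor, gave −0.03 (SE 0.19) and −0.04 (SE 0.13), and −0.37 and −0.13 with that covariate. Ccl20, the ligand of Ccr6, was the dimmest gene, from 22.4 to 423 on control and from 120 to 358 on p190B arrays, and its difference of 0.06 had an SE of 0.48. Without control replicate 5 it was −0.43 (SE 0.28).

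By limma, 0 of the 16 probe sets had an adjusted p under 0.05, beside 0.037% of the 27022 kept probe sets, 0.0333% lower and 0.0037% higher in p190B. None separated the genotypes without overlap, as 0.877% of kept probe sets did. Of the 16, 10 were lower in p190B, against 45.1% of all kept probe sets. Their median log2 difference was −0.04, beside 0.02 over all kept probe sets. Nothing is read from these counts and shares, since the genes were chosen with this contrast known.

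**Figure D2:**
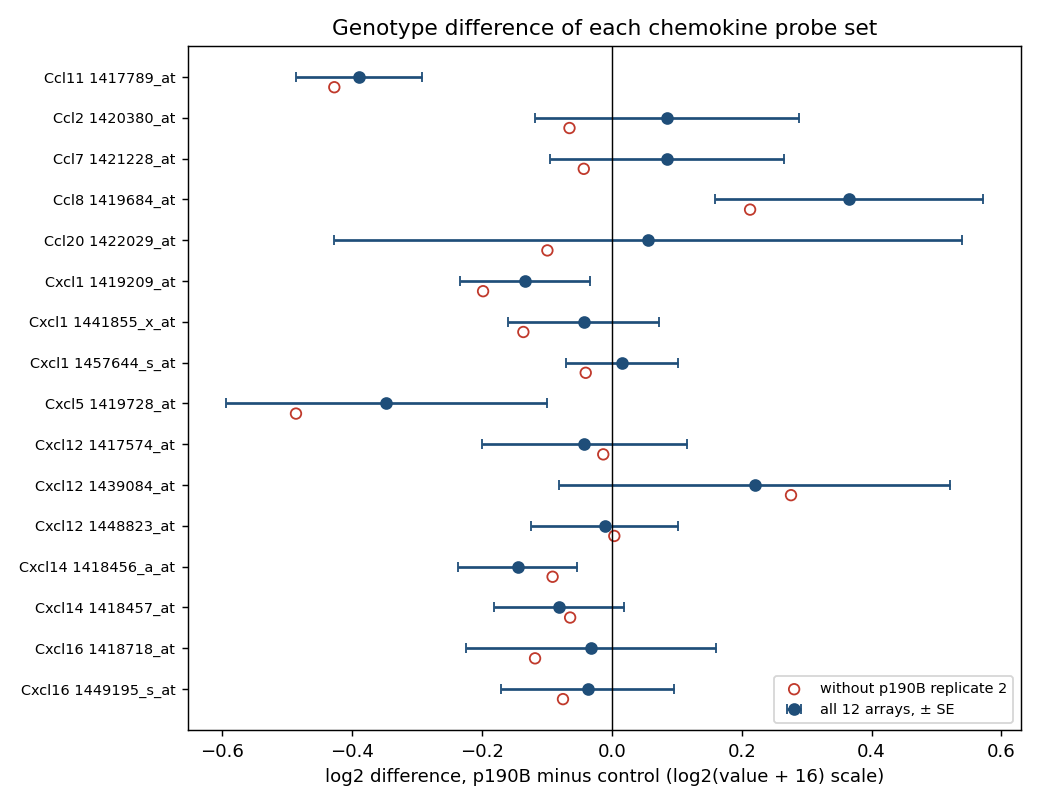
Log2 difference of p190B minus control for all 16 chemokine probe sets (filled points, bars ± SE, 6 arrays against 6), with open points for the fit without p190B replicate 2. Ccl11 lies at −0.39 and at −0.43 without that array, while Ccl8 moves from 0.36 to 0.21.

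Array by array, several but not all of the inflammatory chemokines were high on replicate 2 of both genotypes. On p190B replicate 2, Ccl2 measured 22018, Ccl7 9606 and Ccl8 8337, against medians of 11590, 5522 and 3920 over the other 11 arrays. Of the 16 probe sets, 5 were highest there of all 12 arrays, beside 10.3% of kept probe sets. Ccl2, Ccl7, Cxcl1 by all 3 probe sets and Cxcl16 by its brighter probe set had control replicate 2 and p190B replicate 2 as their 2 highest arrays. That made 6 of 16 probe sets from 4 genes, beside 1.84% of kept probe sets. This count was chosen after the values were seen, and the 3 Cxcl1 probe sets read 1 gene.

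The other chemokines varied in this respect. Ccl20 ranked 2 of 12 on p190B replicate 2, at 358. Cxcl5 was highest of all arrays on control replicate 2, at 1259, and ranked 3 on p190B replicate 2, at 1024. Ccl11 ranked 8 of 12 on p190B replicate 2, at 6555. Cxcl14 was at its lowest there by its dimmer probe set, at 3106 against a median of 4015 on the other arrays. Cxcl12 ranked 8 by both bright probe sets. Ccl8, highest on p190B replicate 2, was only 3566 on control replicate 2, below the control median.

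Genes known as NF-κB-driven inflammatory targets, 29 of which were measured and none of which is among the 10 chemokines, also averaged highest on these arrays. Their mean log2 level was 12.53 on control replicate 2 and 12.48 on p190B replicate 2, and between 11.72 and 12.32 on the other 10 arrays. A list of 24 further chemokines did not share this on control replicate 2. It averaged 10.15 there, within the control range of 9.82 to 10.43, and 10.74 on p190B replicate 2. Of the marker lists, macrophage markers averaged 11.68 on control replicate 2 and 12.16 on p190B replicate 2, and lymphocyte markers 8.16 and 10.04. Endothelial markers were low on both, at 11.93 and 12.04, and fibroblast markers averaged 13.42 and 13.56, the last the highest of the 12 arrays. Luminal markers averaged 13.75 and 13.64 and basal markers 12.17 and 11.83. The part of cell content, handling or RNA quality in the high chemokine values was not tested.

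**Figure D3:**
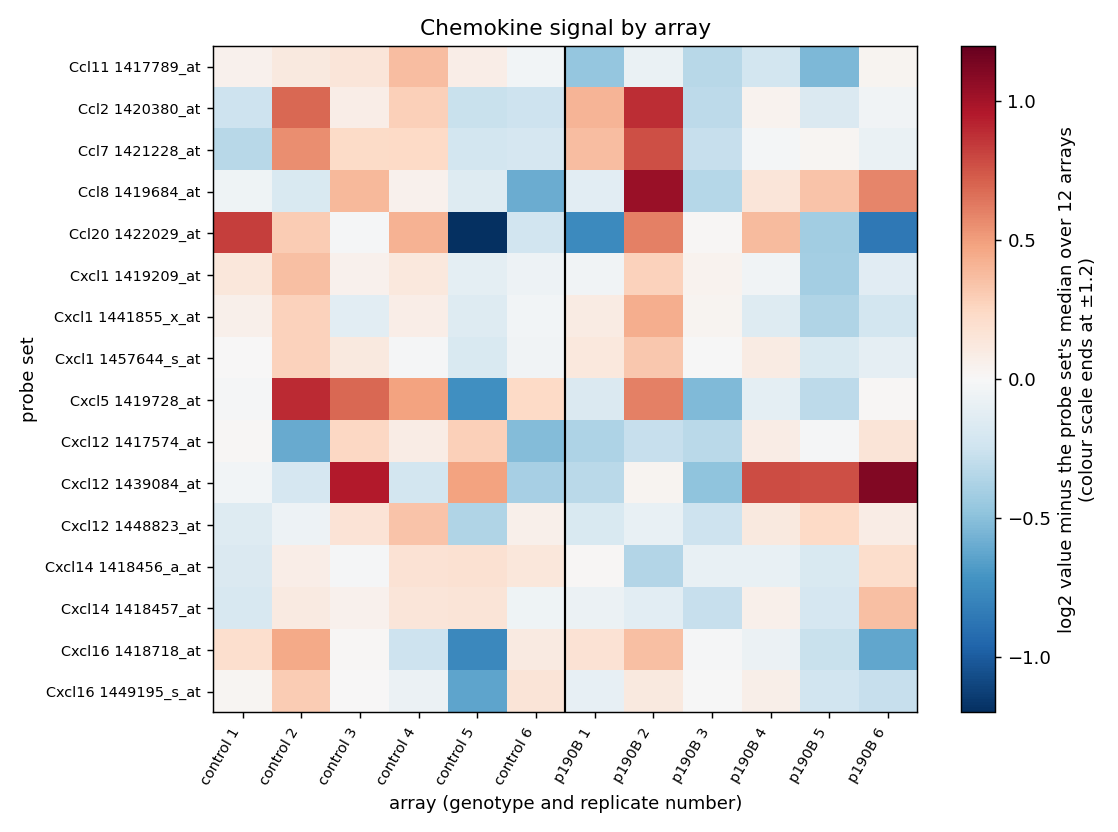
Signal of the 16 chemokine probe sets on each array, as log2(value + 16) minus the probe set's median over 12 arrays, with control left and p190B right of the line. Replicate 2 of both genotypes is red for Ccl2, Ccl7 and Cxcl1, and for Ccl8 only p190B replicate 2 of that pair is.

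The spread between arrays differed widely among the chemokines. After the genotype means were removed, the SD on the log2 scale was 0.99 for Ccl20, 0.50 for Cxcl5, 0.42 for Ccl8, 0.41 for Ccl2 and 0.36 for Ccl7. It was 0.18 for Ccl11 and 0.17 for the brightest Cxcl1 probe set, beside a median of 0.21 over all kept probe sets. Ccl20 varied more than 99.1% of kept probe sets, mainly through 22.4 units on control replicate 5, where the other control arrays had 194 or more.

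Within genotypes, the inflammatory chemokines varied together from array to array. Over 12 arrays, with genotype means subtracted, Ccl2 and Ccl7 correlated with Pearson r = 0.97 and Spearman rho = 0.90. Without the 2 arrays farthest from the Ccl2 median, the replicates 2 of both genotypes, r was 0.93. Ccl2 and Cxcl1 gave r = 0.84 and rho = 0.83, and r = 0.57 without those arrays. Ccl2 and Cxcl5 gave r = 0.79, and 0.58 without them, and Cxcl1 and Cxcl16 gave r = 0.83 and 0.73. These values describe the arrays and share their scaling and cell content, so no p is given.

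Eotaxin gave lower values over all 12 arrays. Ccl11 had r = 0.37 with Ccl2, 0.28 with its neighbour Ccl7, 0.21 with Cxcl1 and 0.43 with Cxcl5. Without the 2 arrays farthest from the Ccl11 median these were 0.53, 0.46, 0.67 and 0.47, so the contrast with the other genes depends on the arrays used. Its highest values were 0.65 with Cxcl14 and 0.60 with Ccl8, and without those arrays they were 0.32 and 0.61. Cxcl14 and Cxcl16 gave the lowest r of the 45 pairs, −0.53. It was −0.37 without the 2 arrays farthest from the Cxcl14 median. Over all 45 pairs of the 10 genes the median r was 0.35, and 38 were positive.

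**Figure D4:**
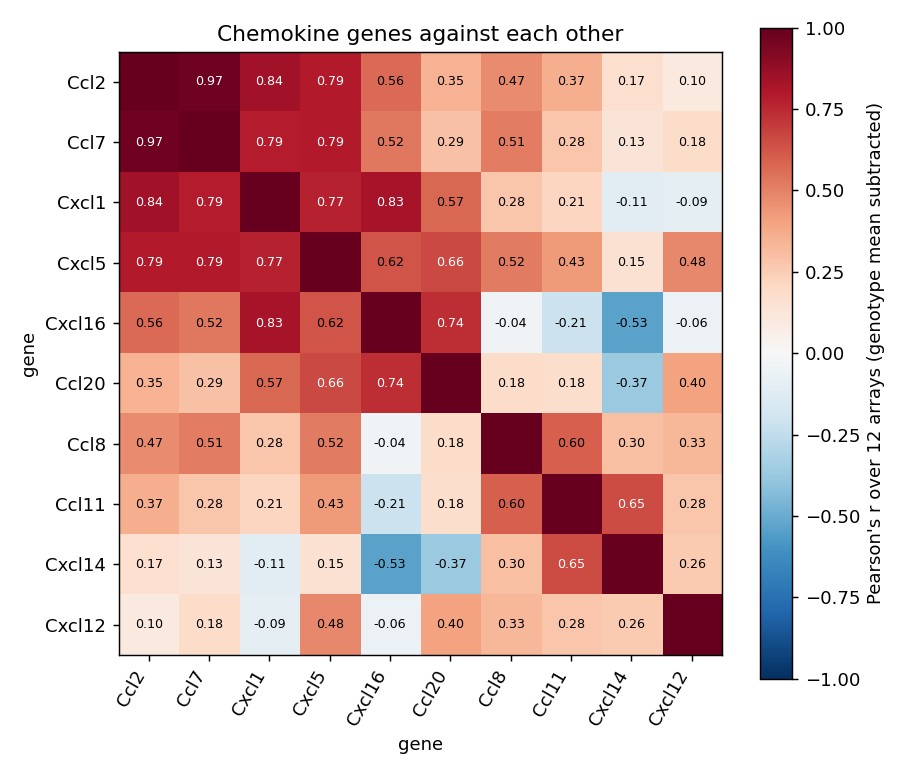
Pearson's r between chemokine genes over 12 arrays after subtraction of the genotype means, each gene read by its brightest probe set. Over all 12 arrays Ccl2, Ccl7, Cxcl1 and Cxcl5 form a block with r from 0.77 to 0.97, and Ccl11 reaches at most 0.65 with any gene. Without replicate 2 of both genotypes the block runs from 0.46 (Ccl7 and Cxcl1) to 0.93 (Ccl2 and Ccl7). Ccl11 then reaches 0.76, with Cxcl14, so the contrast depends on the arrays used.

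Promoter sequences are shown for members of differing behaviour over the arrays. The RefSeq table of GRCm38.p6 gave promoters, 250 bases before to 50 after the start site, for 5 of the 10 genes, Ccl8, Ccl20, Cxcl1, Cxcl12 and Cxcl14. Of the co-varying Ccl2, Ccl7, Cxcl1 and Cxcl5 it gave that of Cxcl1 alone. They were searched on both strands for GGNNTTTCC, a form of the κB motif, for TTCNNNGAA, a form of the STAT motif, and for TATAAA. Cxcl1 held 2 matches to the κB form, beginning 89 and 70 bases before the start site (chr5:90890995-90891294 on the plus strand). Ccl20 held 1, beginning 80 bases before it (chr1:83116516-83116815 on the plus strand). Of all 32851 promoters in the table, 5.82% held such a match. The sequences of Cxcl1, of Ccl20 and, for contrast, of Cxcl12 (chr6:117168285-117168584 on the plus strand) and Ccl8 (chr11:82114935-82115234 on the plus strand) follow, 5′ to 3′, with motif matches in capitals.
Cxcl1: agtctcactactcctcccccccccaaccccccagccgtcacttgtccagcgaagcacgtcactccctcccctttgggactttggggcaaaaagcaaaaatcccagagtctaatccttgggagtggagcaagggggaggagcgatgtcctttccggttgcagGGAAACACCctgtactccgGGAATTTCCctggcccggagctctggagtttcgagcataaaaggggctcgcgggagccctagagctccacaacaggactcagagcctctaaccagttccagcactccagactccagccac
Ccl20: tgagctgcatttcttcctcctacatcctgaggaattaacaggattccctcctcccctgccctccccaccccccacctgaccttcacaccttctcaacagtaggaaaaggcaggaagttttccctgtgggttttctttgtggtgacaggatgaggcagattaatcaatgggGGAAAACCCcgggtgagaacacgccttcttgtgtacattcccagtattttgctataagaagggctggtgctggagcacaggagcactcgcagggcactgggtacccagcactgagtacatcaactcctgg
Cxcl12: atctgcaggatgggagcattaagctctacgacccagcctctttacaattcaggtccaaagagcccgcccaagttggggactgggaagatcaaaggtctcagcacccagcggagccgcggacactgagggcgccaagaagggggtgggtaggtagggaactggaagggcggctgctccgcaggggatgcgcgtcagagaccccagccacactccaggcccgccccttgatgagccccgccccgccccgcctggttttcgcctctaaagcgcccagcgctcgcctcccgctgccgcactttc
Ccl8: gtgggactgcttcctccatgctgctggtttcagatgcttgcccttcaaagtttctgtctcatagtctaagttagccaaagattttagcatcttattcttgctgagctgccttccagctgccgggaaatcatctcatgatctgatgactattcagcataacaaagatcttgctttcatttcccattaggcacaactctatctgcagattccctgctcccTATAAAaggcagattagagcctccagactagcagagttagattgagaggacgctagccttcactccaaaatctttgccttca

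The Cxcl12 window held none of the 3 motifs. The Ccl8 window held TATAAA, as 13.6% of promoters did, beginning 32 bases before its start site, and the Cxcl14 window held the STAT form, as 8.3% did. A match describes these letters only and is no evidence of binding. Cxcl1, with 2 κB-form matches, had r = −0.09 with Cxcl12, r = 0.28 with Ccl8 and r = 0.57 with Ccl20. The value for Ccl20 was 0.34 without the 2 arrays farthest from the Ccl20 median. With promoters for 5 of the 10 genes only, a tie between motif matches and these correlations was not tested.

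Chemokine levels were then set against marker lists of the cells that could make them, within genotypes. Each of the 10 genes was correlated with the mean log2 level of fibroblast, macrophage, lymphocyte, endothelial, luminal and basal markers, 60 relations over 12 arrays. Ccl8 was lower where luminal markers were higher, with Pearson r = −0.77 and Spearman rho = −0.76. A two-sided permutation test within genotypes gave p = 0.00011 for r, adjusted to 0.0066 over the 60 relations, and p = 0.00081 for rho, adjusted to 0.0243. The r was −0.93 within control arrays, −0.87 within p190B arrays and −0.67 without the 2 arrays farthest from the luminal median. It was −0.72 without control replicate 6, where the adjusted permutation p was 0.0648. The call was also lost with equal array medians (r = −0.55, adjusted permutation p = 0.334), with uncentred values (r = −0.58, 0.424) and with list medians (r = −0.61, 0.248). Relations with every other list did not pass for Ccl8, although r was 0.67 with macrophage and 0.61 with fibroblast markers (adjusted permutation p = 0.168 for each).

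The Cxcl12 probe sets gave different values, and no test compared them. The brightest probe set had, against macrophage markers, r = 0.83 and rho = 0.89. The adjusted permutation p was 0.0819 for r and 0.0243 for rho, so only the rank relation passed. The r was 0.82 without the 2 arrays farthest from the macrophage median and 0.91 without p190B replicate 2, where it also passed at an adjusted permutation p of 0.021. With lymphocyte markers r was 0.76 (adjusted permutation p = 0.125). The next brightest instead gave r = 0.89 with endothelial and 0.35 with macrophage markers, and the dimmest 0.58 and 0.49, values examined after the data were seen and given without a test. The brighter pair correlated with each other at only r = 0.22. Cxcl12 is known to make transcripts with different 3′ ends, and which of them each probe set reads is unstated.

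**Figure D5:**
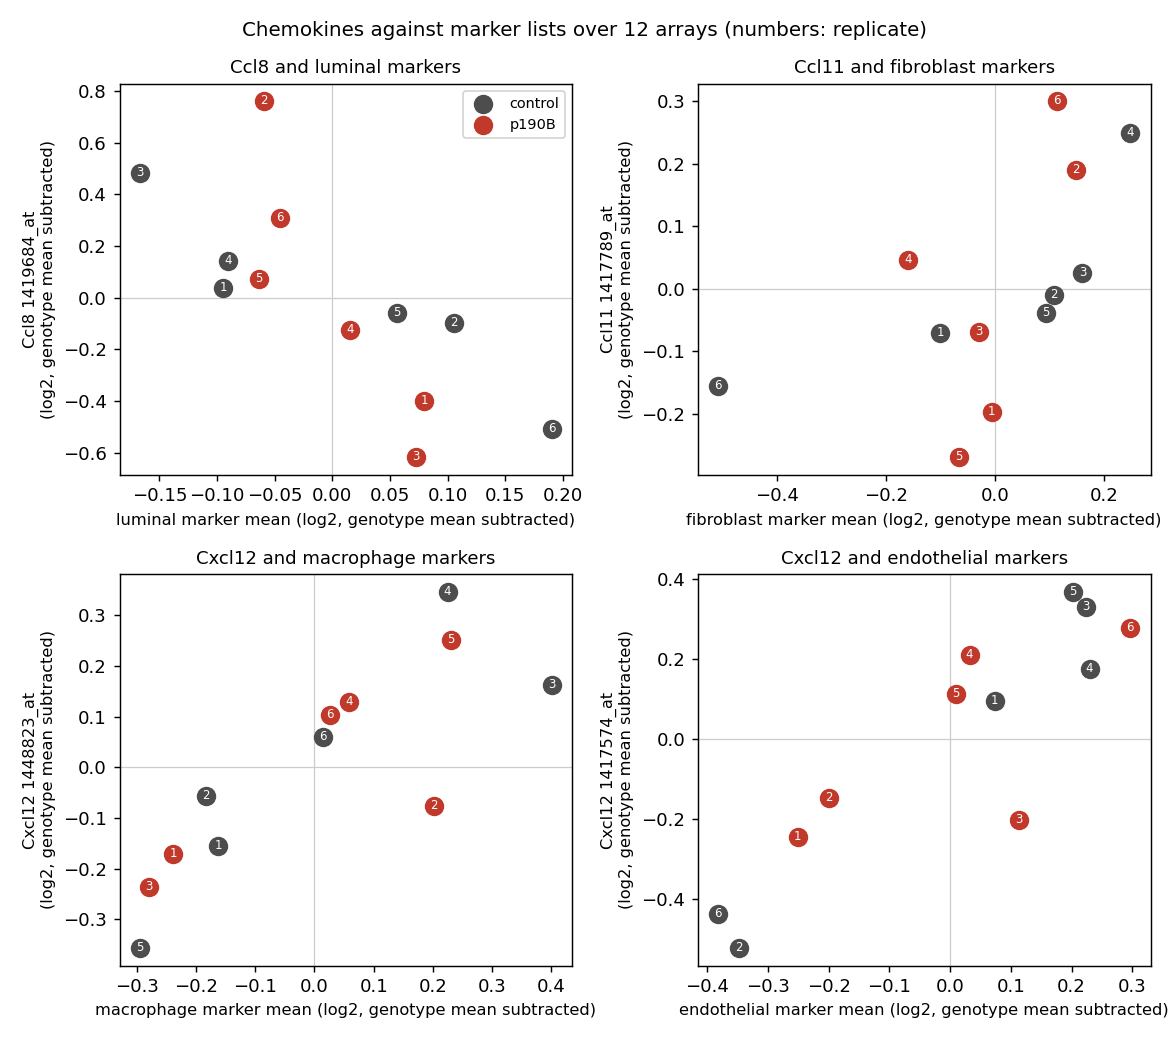
Log2 level of 4 chemokine probe sets against the mean log2 level of a marker list, genotype means subtracted, 1 point per array with its replicate number. Ccl8 is lower where luminal markers are higher (r = −0.77), Ccl11 against fibroblast markers has r = 0.58, and Cxcl12 follows macrophage markers by its brightest probe set (r = 0.83) and endothelial markers by the next brightest (r = 0.89).

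Ccl11 gave its highest r with fibroblast markers, the cells that make much of the eotaxin in many tissues. The r was 0.58 and rho 0.65, and neither passed (adjusted permutation p = 0.19 for r and 0.192 for rho). The r was 0.50 without the 2 arrays farthest from the fibroblast median. The 15 fibroblast genes had a median genotype difference of 0.09 (log2), beside 0.02 over all kept probe sets. Of them 12 were positive, where 45.1% of kept probe sets were negative, and 0 passed limma, beside 0.037%. The part of fibroblast content in the Ccl11 difference was not tested. Cxcl16 was lower where endothelial markers were higher, with r = −0.73 and rho = −0.73, which did not pass (adjusted permutation p = 0.168 and 0.18). In all, 1 of 60 relations passed by Pearson's r and 2 by Spearman's rho.

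Chemokine receptors ranged from bright to dim, and none passed the genotype test. Of 12 on the array, 9 passed the level filter, with control means from 152 (Ackr4) to 16994 (Ackr1). Over all kept probe sets 0.037% passed and 9.32% had an unadjusted p under 0.05. The 9 kept receptors had a median log2 difference of −0.10, beside 0.02 over all kept probe sets. Of them 0 passed by limma and 1 had an unadjusted p under 0.05, near the 9.32% over all kept probe sets. That gene was Ackr3, a decoy receptor that removes Cxcl12, which averaged 13642 ± 2594 in control cells and 10574 ± 1313 in p190B cells (SD, n = 6 each). Its log2 difference was −0.35 (SE 0.12, limma adjusted p = 0.384). Cxcr4, the signalling receptor of Cxcl12, gave −0.27 (SE 0.15) and Ackr1, a decoy for many inflammatory chemokines, −0.11 (SE 0.08), with limma adjusted p of 0.621 and 0.7. Ccr3, Ccr8 and Cxcr2 fell below the level filter.

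Among 24 other measured chemokines 0 passed by limma, beside 0.037% of kept probe sets, and 1 had an unadjusted p under 0.05, beside 9.32%. It was Ccl28, a mucosal chemokine of epithelia including the mammary gland, with 0.39 (SE 0.15, limma adjusted p = 0.444). Ccl12, which lies between Ccl11 and Ccl8, gave 0.35 (SE 0.25) and Pf4, a platelet chemokine, 0.29 (SE 0.18), and neither passed. The median of the list was 0.03.

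Of the 29 NF-κB-driven inflammatory genes 0 passed by limma, beside 0.037% of kept probe sets, and 1 had an unadjusted p under 0.05, beside 9.32%. Their median was 0.00. Nfkbiz, a nuclear IκB protein needed for part of the NF-κB response, read by its brightest probe set, averaged 20897 ± 749 units in control cells against 16804 ± 1452 with p190B (SD, n = 6 each). The log2 difference was −0.32 (SE 0.06) with a limma adjusted p of 0.0751. Ranges of this probe set did not overlap, 19609 to 21772 in control and 15070 to 18841 in p190B, as for 0.877% of kept probe sets. Quantile normalisation gave a limma adjusted p of 0.0275 and array weights 0.0453, both past the threshold. The other Nfkbiz probe sets, whose ranges overlapped between genotypes, gave −0.14 (SE 0.11) and 0.01 (SE 0.10). Il6 gave −0.12 (SE 0.06) and Icam1, an adhesion molecule for leukocytes, −0.18 (SE 0.09), and neither passed.

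The list of type 2 immunity genes held some upstream of eotaxin and others, such as Arg1, downstream of the same signals. From its 12 genes, 7 passed the level filter. Of these, 0 passed limma's threshold and 1 had an unadjusted p under 0.05, with a median of 0.00. The shares over all kept probe sets were 0.037% and 9.32%. Il13ra1, a receptor subunit for IL-13 and IL-4, which induce eotaxin, averaged 4373 ± 706 units in control cells against 3083 ± 615 with p190B (SD, n = 6 each). Its log2 difference was −0.51 (SE 0.13, limma adjusted p = 0.237), and its 3 other kept probe sets gave −0.24, −0.21 and −0.28. Stat6, the transcription factor of that pathway, gave 0.08 (SE 0.08) and Arg1, a target of it in macrophages, −0.42 (SE 0.45). The cytokines Il4, Il5, Il13 and Il25 were below the level filter.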

How the data were processed

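Total RNA of each preparation was made into biotinylated cRNA and read on a single-colour Affymetrix array, per the labels' protocols. The deposited table gives 1 linear intensity per probe set and array. MAS5 made them, per the submitters' processing notes, with a version and target level unstated in the sources used. Trimmed means (2% from each end) were nearly equal on all arrays, so each had been scaled to 1 level, and medians ran from 187.6 to 211.5. No detection calls were used, an array has no read depth, and 6 arrays per group limit the precision.

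Titles gave groups and replicate numbers. The platform annotation named the probe sets, and symbols were checked by Entrez ID against RefSeq (GRCm38.p6), which changed 0. Probe sets with several symbols (932) were not used to name a gene. The 64 array controls were left out of the fits. Values were used as log2(value + 16). Probe sets at or above the 40th percentile of mean log2 value, about 101 units, were kept, which left 27022 of 45037. The genotype comparison used limma 3.58.1 under R 4.3.3, with lmFit and a trended eBayes, and two-sided p-values were adjusted by Benjamini-Hochberg over all kept probe sets and a threshold of 0.05. Genes of companion and marker lists were read by their brightest kept probe set and described by counts and medians. Listed genes that the annotation did not name were not analysed here. Correlations with marker lists used values with the genotype mean subtracted, 100000 permutations within genotypes and Benjamini-Hochberg over 60 relations.

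The chemokines and the lists were chosen with earlier results of these data known. Named genes were all chemokine probe sets, and companion list genes past the threshold or else the 3 with the smallest p. Also named, from probe sets with a single symbol, were the 20 with the largest gap on p190B replicate 2. The 5 genes most like Ccl11 and Cxcl1 came from the same probe sets. Eosinophil genes and other probe sets were named after their values were seen. Other settings were pseudocounts of 1 and 64, no filter or the 60th percentile, quantile or median scaling, eBayes without trend or robust, array weights, a replicate block, medians or uncentred values in correlations, and leaving out each array. Covariates and leaving out p190B replicates 1 and 3 together were added after seeing the data. Over all kept probe sets, same-numbered arrays of the genotypes did not in general deviate together (correlations from −0.29 to 0.41). Of the control arrays, only replicate 4 correlated most with its own number, so the numbers were not taken as pairs. The fit was tested on simulated data for the p190B and control comparison, with 200 of 27022 probe sets changed. It recovered 52.6% of 1.5-fold and 86.2% of 2-fold changes, and 1 of 10 runs with no change gave a call. The simulated noise was independent between probe sets, whereas genes of these arrays varied together, so the rates need not hold for them. Figures were drawn with matplotlib 3.10.9.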

Additional observations from a re-analysis of the deposited data

Results flagged for a closer look

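Groups of 6 arrays were examined for a value far from the others, over the 16 chemokine probe sets as intensity and as log2(value + 16), the 6 correlated marker lists and the 3′ over 5′ ratios. Of 80 such checks 2 held one, where chance gives about 1 in 20. Ccl20 on control replicate 5 was 5.26 on the log2 scale, and the 5 others of its group had 7.71 to 8.78. As intensity it was not far enough from the others. The log2 Actb ratio of control replicate 2 was 0.35, and the 5 others of its group had 0.25 to 0.29. That array also had the highest control values of Ccl2, Ccl7, Cxcl1, Cxcl5 and Cxcl16, and the part of RNA quality in them was not tested.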

How the results depend on the processing

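Of the 25 other settings, 20 can alter a log2 difference, and there 275 of 320 chemokine differences kept their sign. Ccl11, Ccl8, Cxcl5, 1 Cxcl1, 1 Cxcl14 and 1 Cxcl12 probe set kept it in every setting that measured them. Ccl11 ran from −0.45 to −0.30. Of the 320, 5 moved by more than the array SD, all with the Gapdh ratio as a covariate. The count of probe sets passing, 10, was 5 with no filter, 17 at the 60th percentile, 31 with quantile normalisation (9 of them higher, against 1 of 10), 4 with equal medians, 3 without trend, 19 with array weights, 5 without p190B replicates 1 and 3 and 1 with the Actb ratio as a covariate. It was 0 with the Gapdh ratio (1802 at an unadjusted p under 0.05) and 0 with the replicate block (2287 at an unadjusted p under 0.05), and 4 to 9 with 1 array left out in turn. With 6 against 6 arrays the replicate block cannot alter a difference, but it moved the SE of 1 Cxcl1 probe set from 0.100 to 0.047 and that of Ccl2 from 0.20 to 0.12. The companion lists gave 0 calls, but 1 with quantile normalisation and 1 with array weights, Nfkbiz each time, and 0 with any 1 array left out. Correlations passing numbered 1, but 0 with equal medians, 0 uncentred and 0 with list medians. Leaving out 1 array gave from 0, without control replicate 6, to 3, without p190B replicate 2, where Cxcl12 passed with macrophage and lymphocyte markers. The count of probe sets highest on p190B replicate 2 was 4 with equal medians and 5 in the other settings run for it. The causes of these shifts were not tested.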

Other observations

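Among kept probe sets with a single symbol, beyond the 10 chemokines, p190B replicate 2 exceeded all other arrays most for that of Wfdc12. This secreted protease inhibitor family member had 3017 units against at most 1252 elsewhere. Rnase2a, an eosinophil-associated ribonuclease, followed with 612 against 252. Zmynd15, which neighbours Cxcl16 in the RefSeq gene order, had 725 against 333. Ccl22, a ligand of Ccr4 made by dendritic cells and macrophages, had 2359 against 1151, and Ccl5, a T cell attractant, 13441 against 8443. Il12b, the shared subunit of IL-12 and IL-23, had 1036 against 577 and 1789 against 1039 by its 2 probe sets. The immunoglobulin heavy chain gene Igha had 4211 against 2182, and the S-phase enzymes Tk1 and Rrm2 had 1724 against 1020 and 3169 against 1894. The rest of the 20 largest gaps belonged to Plxnc1, Asf1b, Dhrs13, Pask, Ska1, Oip5, Brca1, Epsti1, Ndc80 and Hepacam2. All 20 are values of 1 array, given with no test.

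Genes most like Ccl11 over 12 arrays, with genotype means subtracted, were Pou3f1 (r = 0.92, rho = 0.94), Umps (r = 0.91), Psma5 (r = 0.90), Ube2k (r = 0.90) and Tmem106b (r = 0.90). Those most like Cxcl1 were Ankrd11 (r = 0.94, rho = 0.95), Nck1 (r = 0.93), H2-Q5 (r = 0.93), Rictor (r = 0.91) and Pip4p1 (r = 0.91). Without the 2 arrays farthest from the median, r was 0.84 for Pou3f1 and 0.93 for Ankrd11. They are the highest among the genes named by a single symbol within the 27022 kept probe sets, so high values follow from the search.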
